A study of Homo sapiens with 36 samples.

Results

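Cells that had been under estradiol for 72 h and cells that had been under it for 16 h were compared after the same 16 h of progesterone. The cells were ZR-75-1, an established human breast cancer line that carries the estrogen and progesterone receptors, kept in medium stripped of hormones and free of phenol red. The E2pre+P4 group received 10 nM estradiol (E2) for 72 h together with 10 nM progesterone (P4) for 16 h, and the E2+P4 group received 10 nM of each for 16 h. Gene expression was measured on Illumina HumanWG-6 v3 arrays, with 1 array per sample. Each of these groups had 4 arrays, so that the comparison took in 8 of the 36 arrays of the series. The remaining arrays, 4 in each group, were from cells treated for 16 h with E2, the androgen dihydrotestosterone (DHT), the synthetic progestin medroxyprogesterone acetate (MPA), E2+MPA, E2+DHT, P4 or vehicle (ethanol), every hormone at 10 nM. The 8 arrays of the comparison were chosen by their labels alone. The arrays left out of some fits below were picked afterwards by their signal, so the p-values of those fits depend on that choice.

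The labels of the E2pre+P4 samples let P4 run during the last 16 h of E2, whereas the methods have it follow the E2, and the order is not settled here. E2 alone for 72 h was not among the groups analysed here, so that an effect of longer E2 by itself and a different response to P4 cannot be told apart. The labels do not say whether replicates were separate cultures, so p-values reflect the spread among these samples alone, which may be technical.

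As background, estradiol binds the estrogen receptor (encoded by ESR1), which then switches on growth and secretory genes in breast epithelium, and one of its best known targets is the gene of the progesterone receptor, PGR. Progesterone binds that receptor, which recognises DNA elements also read by the androgen and glucocorticoid receptors, and the occupied receptor is then broken down. Progestin target genes in breast cells include chaperones of the steroid receptors, enzymes that convert steroids, and regulators of growth factor signalling.

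An array of each of 2 groups went against its label. Replicate 2 of E2pre+P4 correlated at 0.9451 to 0.9819 with the other E2pre+P4 arrays (Pearson's r across 9902 genes of log2 signal, given as a description) and at 0.9568 to 0.9896 with the E2 arrays other than replicate 2. Its r with the E2+P4 arrays was 0.9616 to 0.989, and the other E2pre+P4 arrays correlated with each other at 0.9514 to 0.9899. These ranges overlap and do not tell the groups apart. On most of the genes called below, the levels of E2pre+P4 replicate 2 lay with the E2 and E2+P4 arrays, and those of E2 replicate 2 with the E2pre+P4 arrays. PHACTR3 shows the pattern: the library labelled E2pre+P4 replicate 2 had a log2 signal of 5.25 where the rest of its group had 8.80 to 9.66, while the library labelled E2 replicate 2 had 9.51, against 5.16 to 5.34 on the other E2 arrays. The pair look exchanged. Both libraries keep their labels here, neither was moved to another group, and the calls are counted with all arrays, without E2pre+P4 replicate 2 and without both. The other facts of the arrays showed no such gap: the probes detected numbered 12663 to 13979 on the E2pre+P4 arrays and 12647 to 14010 on the E2+P4 arrays, against 12191 to 14806 over all 36. All 10 luminal epithelial markers on the array were detected on all 8 arrays of the comparison, whereas 2 of 5 basal, 2 of 8 fibroblast, 0 of 5 endothelial and 1 of 7 leukocyte markers were detected on any of them.

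With all arrays, 1 of 9902 genes was called (0.0101%) at an adjusted p under 0.05, in a limma fit with Benjamini-Hochberg adjustment over all genes. It was GRPR, the receptor of gastrin-releasing peptide, which was lower in E2pre+P4. With the replicate number as a block, 0 genes were called in limma, and 349 had an unadjusted p under 0.05. In the fit without the block, 344 genes had an unadjusted p under 0.05. Without E2pre+P4 replicate 2, 76 genes were called (0.768%), 57 of them higher in E2pre+P4 (0.576%) and 19 lower (0.192%). E2 replicate 2 still entered that fit through the spread shared by all groups. Without both arrays in doubt, 126 genes were called (1.27%), 93 higher (0.939%) and 33 lower (0.333%), and 583 had an unadjusted p under 0.05. All 76 genes of the fit without E2pre+P4 replicate 2 were among the 126. These fits give a gene the same difference and differ in the spread. Of the 40 called genes that are named by rule, 29 were called without E2pre+P4 replicate 2 alone and 1 (GRPR) with all arrays. The 11 that were not called without that array alone were ADCY1, BAG1, CCN5, CSTA, MT2A, MUC1, MYB, PNMT, SOCS2, TGFA and THRSP, at adjusted p of 0.0503 (MYB) to 0.159 (TGFA). For each of the 40 the adjusted p was higher in that fit than without both arrays, as 0.000268 against 1.17e-13 for AKR1C2. E2 replicate 2 is outside the comparison itself, and leaving it out as well changed the p-values and not the differences.

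The directions were set by the arrays that were not in doubt. All 126 genes had the same sign with all arrays, and a smaller size in each case. On all 126, the 3 E2pre+P4 arrays and the 4 E2+P4 arrays did not overlap, where 891 of the 9902 genes (9%) did not overlap on those 7 arrays, 420 of them higher (4.24%) and 471 lower (4.76%). Of the 99 genes with a level detected in both groups, 50 differed at least 2-fold and 8 at least 4-fold. For 21 of the 93 higher genes the probe was detected on 0 of 4 E2+P4 arrays, and for 6 of the 33 lower genes on 0 of 3 E2pre+P4 arrays. For these the fold is a lower bound, set against the detection level of the arrays, and is written "at least". Unless another fit is named, the differences below are E2pre+P4 minus E2+P4 on the log2 scale without both arrays in doubt, with the standard error (SE) of the model, and "rose" and "fell" stand for genes called in that fit.

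The side that each array took of the midpoint between the group means was read for all 36 arrays. The 2 arrays in doubt were outside the fit that chose the 126 genes, and the other groups entered it only through the shared spread. All 36 arrays entered the normalisation, the detection filter (at least 4 of 36 arrays) and the choice of probe. PHACTR3, AKR1C2 and BASP1, for example, were detected on 3 E2pre+P4 arrays, on E2 replicate 2 and on no other array. For such genes the side of E2 replicate 2 was in part fixed by the filter. E2pre+P4 replicate 2 was on the E2pre+P4 side for 6 genes (4.76%), and E2 replicate 2 was on it for 116 (92.1%). The other E2 arrays were on it for 7, 2 and 6 genes. The P4 arrays were on that side for 15 to 18 genes and the vehicle arrays for 14 to 34, while the MPA arrays had 25 to 33 and the E2+MPA arrays 26 to 47. The DHT arrays had 29 to 33 and the E2+DHT arrays 12 to 24.

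**Figure D1:**
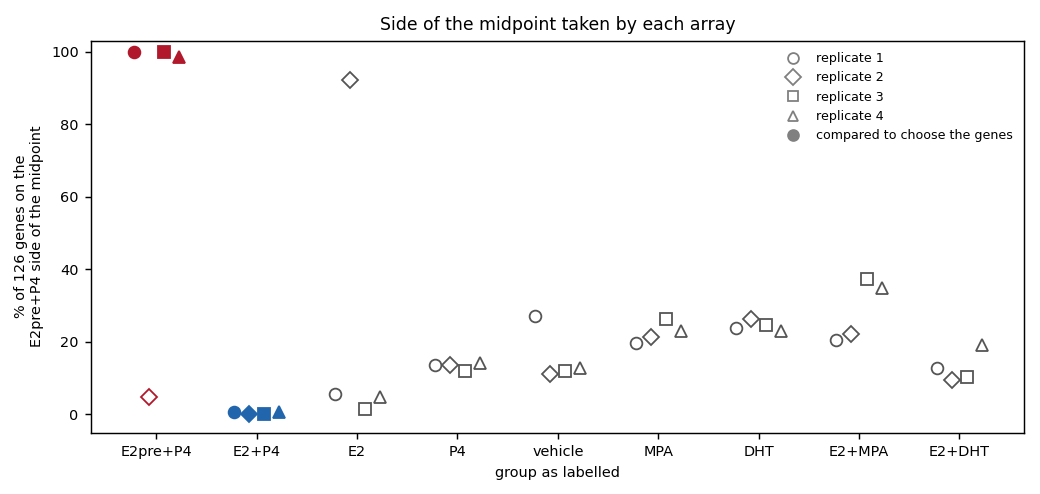
Percentage of the 126 called genes (vertical axis) for which an array lay on the E2pre+P4 side of the midpoint between the E2pre+P4 and E2+P4 means, for each of 36 arrays by labelled group (horizontal axis). Filled symbols are the 7 arrays compared to choose the genes. Of the open symbols, the 2 arrays in doubt were outside the fit and the others entered it through the shared spread. All 36 arrays entered the normalisation, the detection filter and the choice of probe. E2 replicate 2 stands at 92.1% and E2pre+P4 replicate 2 at 4.76%, each away from its labelled group.

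Several progesterone-responsive genes were higher after the longer estradiol exposure. SERPINA3, which encodes a secreted protease inhibitor and is a known progestin target (probe ILMN_1788874), had log2 signals of 12.47, 9.42, 12.51 and 12.88 on E2pre+P4 replicates 1 to 4 and of 10.52, 10.37, 10.33 and 10.31 on the E2+P4 arrays. All E2pre+P4 arrays apart from replicate 2 lay above every E2+P4 array. The difference was 2.23 ± 0.25 (adjusted p = 6.18e-07), or 4.70-fold, and with all arrays it was 1.44 (adjusted p = 0.903). With E2pre+P4 replicate 2 alone left out, the adjusted p was 0.00632. SERPINA3 rose with E2 alone against vehicle as well (2.00, adjusted p = 3.98e-06), and its mean levels on the log2 scale were 12.62 ± 0.23 in E2pre+P4 (SD, n = 3), 10.38 ± 0.10 in E2+P4, 9.43 ± 0.11 in E2 (n = 3), 8.83 ± 0.27 in P4 and 7.43 ± 0.79 in vehicle (n = 4 each). E2+P4 minus E2, a comparison that shares its E2+P4 arrays with the present one, was 0.95 (adjusted p = 0.498).

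The stretch before its start site is shown because it holds a doubled hexamer that progesterone receptors read. The hexamer is TGTTCT, an arm of the progesterone response element, searched on both strands and here present as its complement, in capitals. The stretch covers the 250 bases before the start at chr14:94612141-94612390 (plus strand, RefSeq, GRCh38.p14).
SERPINA3: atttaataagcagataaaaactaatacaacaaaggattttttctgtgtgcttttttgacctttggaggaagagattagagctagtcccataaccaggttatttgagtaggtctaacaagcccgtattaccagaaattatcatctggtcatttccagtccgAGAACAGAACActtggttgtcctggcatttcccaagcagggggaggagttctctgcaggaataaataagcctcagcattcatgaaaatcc
The pair of matches overlap by a base and lie 90 to 80 bases before the start. A match is a description of the letters, and binding was not measured here. The hexamer occurred in 8 of the 73 higher genes with a promoter in the table (11%), in 5 of 29 lower genes (17.2%) and in 698 of 8186 tested genes (8.53%), over windows of 250 bases before to 50 after the start, against 14.9% of all 27305 promoters. The full palindromes GNACANNNTGTNC (of the progesterone receptor) and GGTCANNNTGACC (of the estrogen receptor) were in 0 of these called genes, and in 0.232% and 0.0122% of tested genes.

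FKBP5, a chaperone that holds steroid receptors and is a classical target of progestins, androgens and glucocorticoids (probe ILMN_1778444), stood at 11.37, 9.35, 11.20 and 11.48 on the E2pre+P4 arrays and at 10.11, 9.94, 10.30 and 10.46 on the E2+P4 arrays. Replicate 2 again fell below the E2+P4 range and the other E2pre+P4 arrays above it. The difference was 1.15 ± 0.14 (adjusted p = 1.83e-06, or 0.017 without E2pre+P4 replicate 2 alone), against 0.65 with all arrays (adjusted p = 0.999). Its level in E2pre+P4, 11.35 ± 0.14 (SD, n = 3), was beside that in DHT (11.44 ± 0.05) and MPA (11.25 ± 0.15), where P4 had 9.74 ± 0.10 and vehicle 9.57 ± 0.10 (n = 4 each).

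HSD11B2, the enzyme that inactivates cortisol, read 10.72, 8.70, 10.66 and 10.96 in E2pre+P4 and 9.29, 9.57, 9.55 and 9.56 in E2+P4. It rose by 1.28 ± 0.14 (adjusted p = 5.42e-07, or 0.0102 without E2pre+P4 replicate 2 alone), and with all arrays differed by 0.77 (adjusted p = 0.999). It was also one of 8 genes higher in E2+P4 than in E2 without both arrays in doubt (0.74, adjusted p = 0.0258). The metallothionein MT2A, which binds zinc and belongs to a family of close copies that a probe may not separate, rose by 1.44 ± 0.31 (adjusted p = 0.00793), with 14.03, 12.62, 14.29 and 14.96 in E2pre+P4 and 12.84 to 13.10 in E2+P4. Without E2pre+P4 replicate 4, which was its highest array, it was not called (1.17, adjusted p = 0.133).

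STAT5A, the transcription factor of prolactin signalling, rose at least 1.17-fold (1.21 ± 0.22, adjusted p = 0.00115), being detected on 2 of 3 E2pre+P4 arrays and on none of the E2+P4 arrays. Its levels were 7.05, 5.56, 7.20 and 7.66 in E2pre+P4 and 5.80 to 6.32 in E2+P4. SOCS2, an inhibitor that acts in the same pathway, fell (-0.74 ± 0.17, adjusted p = 0.0163), and the receptor PRLR differed by -0.16 (not called). The surface mucin MUC1 rose by 0.70 ± 0.17 (adjusted p = 0.0329). The call of MUC1 ended when any 1 of 6 of the 7 arrays was left out (adjusted p up to 0.284) and with only the 2 groups in the fit (0.0756). That of SOCS2 ended without any 1 of 3 arrays (adjusted p up to 0.135), and with cyclic loess (0.109), no background correction (0.0573), sets of 6 columns as a block (0.101) or only the 2 groups (0.0739).

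Of the 29 measured genes of the list of progestin-induced genes, 6 rose (20.7%, against 0.939% of all genes) and 0 fell (0.333% of all genes), the 6 being FKBP5, HSD11B2, STAT5A, ERRFI1, MUC1 and MT2A. The median difference of the list was 0.33, against -0.03 over all 9902 genes, and 22 of the 29 were above 0. With all arrays the list had a median of 0.20 and 0 calls. Members that were not called included WNT4 (0.88), S100P (0.87) and SGK1 (0.73) on the high side, and IGFBP5 (-0.43) and DUSP1 (-0.30) on the low side. A panel of 4 progesterone-responsive genes was taken from the study. SERPINA3 and SEPTIN4 came from arrays of this series, and FKBP5, THOC5 and SERPINA3 from RT-qPCR on separate RNA samples. The study named others as well, among them EGFR and EGF, which are given further below. As this panel comes in part from the same series, it is no independent evidence. FKBP5 and SERPINA3 rose, whereas SEPTIN4 (-0.56, adjusted p = 0.682) and THOC5 (-0.20, adjusted p = 1) were not called. SEPTIN4 was near the floor, detected on 0 of 3 E2pre+P4 and 1 of 4 E2+P4 arrays.

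**Figure D2:**
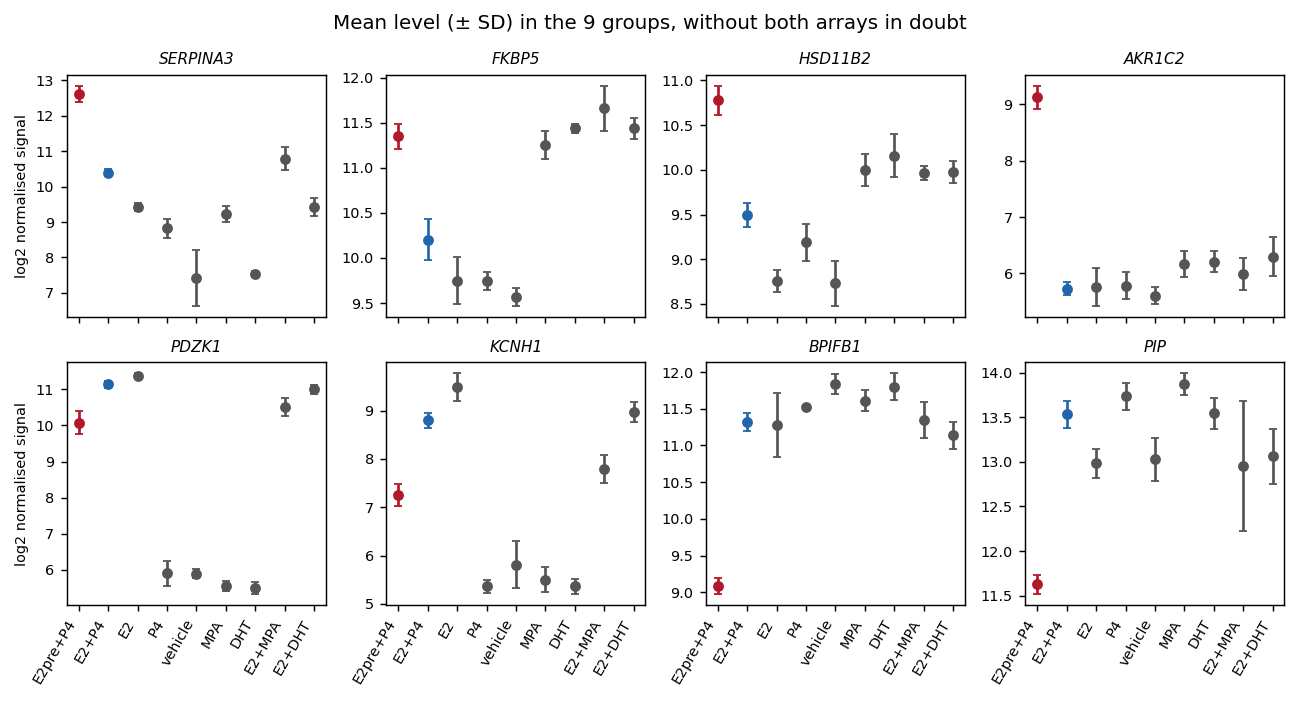
Mean log2 normalised signal (vertical axis) of 8 genes in the 9 groups (horizontal axis), without both arrays in doubt, with bars of 1 SD (n = 3 for E2pre+P4 and E2, n = 4 otherwise). SERPINA3, HSD11B2 and AKR1C2 are highest in E2pre+P4, PDZK1 and KCNH1 are high in the groups given E2 and lower in E2pre+P4 than in E2+P4, and BPIFB1 and PIP are lowest in E2pre+P4.

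Enzymes that act on steroids were among the genes with the largest fitted rises. AKR1C2, which reduces ketosteroids including dihydrotestosterone, read 9.07, 6.08, 8.94 and 9.35 in E2pre+P4 and 5.71, 5.81, 5.57 and 5.83 in E2+P4. It was detected on 0 of 4 E2+P4 arrays and rose at least 4.13-fold (3.39 ± 0.19, adjusted p = 1.17e-13). With E2pre+P4 replicate 2 alone left out, the adjusted p was 0.000268, and with all arrays AKR1C2 missed the threshold (2.63, adjusted p = 0.0894). In none of the other groups did its mean pass 6.30 on the log2 scale, without both arrays in doubt. Its probe was detected on 3 E2pre+P4 arrays, on E2 replicate 2 and on no other array. It thus passed the detection filter only through those arrays, and the low levels elsewhere are given as a description. AKR1C3, which reduces progesterone-related and androgenic ketosteroids, had 9.43, 6.81, 9.74 and 9.76 in E2pre+P4 and 6.56 to 7.32 in E2+P4, a rise of 2.78 ± 0.23 (adjusted p = 9.67e-10). These genes are close copies, so that signal of one may be read by the probe of the other. Of 22 measured genes of steroid and xenobiotic metabolism, 3 rose (AKR1C2, AKR1C3 and HSD11B2; 13.6%, against 0.939% of all genes) and 0 fell, with a median of 0.05. HSD17B1, which makes estradiol, differed by 0.69 and the 4 measured UGT2B genes, which attach glucuronic acid to steroids, by -0.58 to -0.10, none of them called.

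PHACTR3, a regulator of protein phosphatase and actin, was undetected in E2+P4 like AKR1C2, so that the sizes of their rises have no order. Its 4 E2pre+P4 arrays read 8.83, 5.25, 8.80 and 9.66 and its E2+P4 arrays 5.32, 5.31, 5.61 and 5.60. It rose at least 4.06-fold (3.64 ± 0.19, adjusted p = 1.17e-13), and differed by 2.68 with all arrays (adjusted p = 0.251). NELL2, a secreted protein with EGF-like repeats, read 10.55, 6.88, 10.47 and 10.81 in E2pre+P4 and 6.62 to 7.81 in E2+P4 (3.22 ± 0.24, adjusted p = 5.19e-11; 2.29 with all arrays, adjusted p = 0.368). Its 9.34-fold rise was the largest among the genes detected in both groups. The collagen-modifying enzyme P3H2 rose by 3.20 ± 0.22 (2.02 with all arrays, adjusted p = 0.882), with 10.42 to 10.73 on the E2pre+P4 arrays other than replicate 2, which read 5.86, and 6.87 to 7.72 in E2+P4.

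C1orf116, an androgen-responsive gene, read 10.21, 5.91, 10.33 and 10.64 in E2pre+P4 and 7.19, 6.88, 7.67 and 7.75 in E2+P4 (3.02 ± 0.21, adjusted p = 1.72e-11; 1.90 with all arrays, adjusted p = 0.968). Its mean of 10.39 ± 0.22 in E2pre+P4 (SD, n = 3) lay beside those of DHT (10.30 ± 0.24) and E2+DHT (10.52 ± 0.23), and above those of MPA (8.38 ± 0.24), P4 (6.91 ± 0.26) and vehicle (5.78 ± 0.13, n = 4 each). C1orf116 was also higher in E2+P4 than in E2 (1.61, adjusted p = 6.69e-05). Of 19 measured androgen-induced genes, 4 rose (C1orf116, FKBP5, TTC21A and PNMT; 21.1%, against 0.939% of all genes) and PIP fell (5.26%, against 0.333%), with a median of 0.29. PNMT, of adrenaline synthesis, rose at least 1.96-fold (1.37 ± 0.22) and TTC21A, of the cilium, by 0.92. PNMT was not called without E2pre+P4 replicate 2 alone (adjusted p = 0.13) or with only the 2 groups in the fit (0.058). Androgen receptor targets that were not called included TMPRSS2 (-0.11) and STEAP2 (-0.70).

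Other large rises came from genes of varied roles. ANXA1, a phospholipid-binding protein that dampens inflammation, read 12.08, 8.81, 11.77 and 11.79 in E2pre+P4 and 8.68 to 9.29 in E2+P4, which is 7.80-fold (2.96 ± 0.21, adjusted p = 1.93e-11; 2.20 with all arrays, adjusted p = 0.251). EMP1, a membrane protein of epithelia, read 11.17, 8.57, 11.05 and 11.16 against 8.68 to 8.89 in E2+P4 (2.33 ± 0.18). The actin-binding CALD1 rose at least 3.20-fold, the membrane-bound BASP1 at least 1.84-fold and the nuclear protein TRNP1 at least 2.70-fold, all 3 undetected on the 4 E2+P4 arrays. The keratin KRT80 rose by 1.49 ± 0.13 (adjusted p = 2.75e-09), with 12.30, 10.35, 12.23 and 12.22 in E2pre+P4 and 10.48 to 10.93 in E2+P4. It was the 1 gene called of 23 keratins, claudins and adhesion genes (4.35%, against 0.939% of all genes higher). OCLN (1.16) and ITGA6 (1.14) were not called, and KRT8, KRT18 and KRT19 lay between -0.24 and 0.23.

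**Figure D3:**
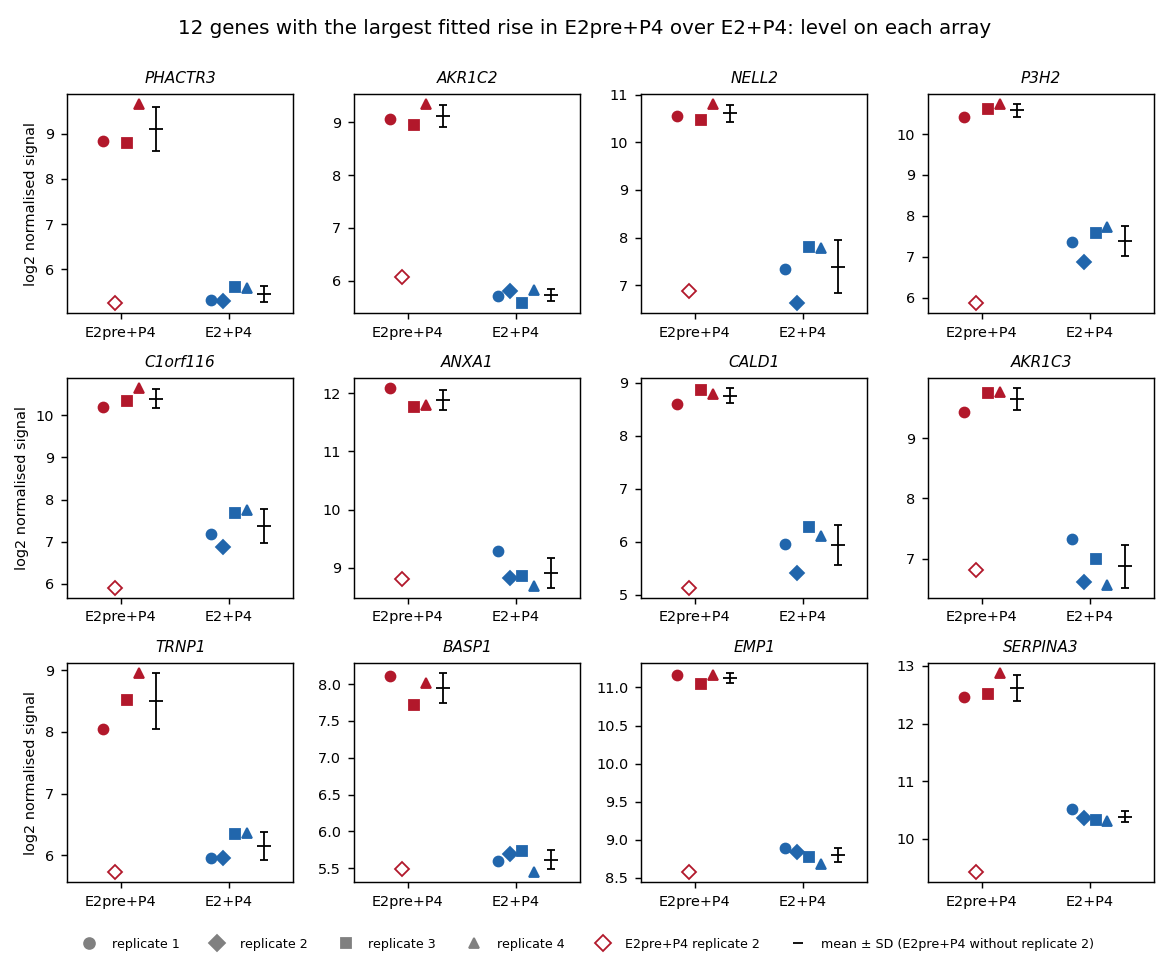
Log2 normalised signal (vertical axis, a separate scale for each gene) on every E2pre+P4 and E2+P4 array (horizontal axis) for the 12 genes with the largest fitted rises, with the mean and SD of 3 E2pre+P4 and 4 E2+P4 arrays. On all 12 the E2pre+P4 arrays 1, 3 and 4 lie above every E2+P4 array, and the open symbol, E2pre+P4 replicate 2, lies at or near the E2+P4 range or below it.

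BPIFB1 and PIP had the largest fitted falls. BPIFB1, a secreted protein of mucosal surfaces, read 9.06, 11.22, 9.002 and 9.21 in E2pre+P4 and 11.39, 11.37, 11.14 and 11.38 in E2+P4. The difference was -2.23 ± 0.15 (adjusted p = 1.93e-11, or 1.46e-05 without E2pre+P4 replicate 2 alone), and -1.70 with all arrays (adjusted p = 0.0686). Its means in the other groups were 11.14 to 11.84 on the log2 scale, so that E2pre+P4 (9.09 ± 0.11, SD, n = 3) stood alone.

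PIP, the prolactin-induced protein made by apocrine cells and a known androgen target, read 11.54, 13.12, 11.74 and 11.59 in E2pre+P4 and 13.73, 13.58, 13.44 and 13.38 in E2+P4. It fell by 1.91 on the log2 scale (SE 0.23, adjusted p = 1.86e-06, or 0.000362 without E2pre+P4 replicate 2 alone). With all arrays it differed by -1.53 (adjusted p = 0.0686). The lowest mean among the other groups was 12.95 ± 0.73 in E2+MPA (SD, n = 4), and the highest 13.87 ± 0.12 in MPA. The 250 bases before its start, at chr7:143131827-143132076 (plus strand, RefSeq, GRCh38.p14), are shown beside those of SERPINA3 because PIP moved the other way and also holds the hexamer, at 198 to 193 bases before the start, again in capitals.
PIP: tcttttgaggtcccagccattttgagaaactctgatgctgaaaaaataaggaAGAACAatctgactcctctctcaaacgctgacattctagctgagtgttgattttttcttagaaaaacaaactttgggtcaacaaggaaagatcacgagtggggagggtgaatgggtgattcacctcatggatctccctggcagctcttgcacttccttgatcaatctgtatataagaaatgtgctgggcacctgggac
SPINK4, a secreted protease inhibitor of mucosa, fell at least 1.79-fold and was undetected on the 3 E2pre+P4 arrays (-1.57 ± 0.31, adjusted p = 0.00344). Of 15 measured apocrine and secretory breast products, PIP fell (6.67%, against 0.333% of all genes) and MUC1 rose (6.67%, against 0.939%), and the median was -0.11. LTF (-0.57), APOD (-0.32), SCGB2A2 (-0.27) and TFF3 (0.14) were not called.

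Of 43 measured estrogen-induced genes, 1 rose (2.33%, against 0.939% of all genes) and 4 fell (9.3%, against 0.333%), with a median of -0.05. Of 15 estrogen-repressed genes none was called, against 1.27% of all genes. PDZK1, a scaffold protein and an estrogen-induced gene, read 9.77, 11.15, 10.05 and 10.40 in E2pre+P4 and 11.06, 11.28, 11.09 and 11.14 in E2+P4 (-1.07 ± 0.16, adjusted p = 7.49e-05; -0.80 with all arrays, adjusted p = 0.401). The potassium channel gene KCNH1 read 7.47, 9.05, 7.03 and 7.25 in E2pre+P4 and 8.62 to 9.003 in E2+P4 (-1.54 ± 0.20, adjusted p = 6.99e-06; -1.10 with all arrays, adjusted p = 0.611). Both had risen with E2 against vehicle, PDZK1 by 5.48 and KCNH1 by 3.67, and their means in E2pre+P4 were above vehicle. PDZK1 averaged 10.07 ± 0.31 in E2pre+P4 (SD, n = 3) and 5.89 ± 0.12 in vehicle (n = 4), and KCNH1 7.25 ± 0.22 and 5.81 ± 0.49. Neither was detected on a vehicle array, and KCNH1 was detected on 1 of the 3 E2pre+P4 arrays. Sizes against vehicle are therefore not exact, and E2pre+P4 against vehicle was not tested. The transcription factor MYB (-0.50 ± 0.11, adjusted p = 0.0136) and the ubiquitin ligase SIAH2 (-0.46) fell as well, and the call of MYB ended without E2pre+P4 replicate 1, E2pre+P4 replicate 4 or E2+P4 replicate 3 (highest adjusted p = 0.156). CCN5, a secreted growth regulator, rose (0.95 ± 0.24, adjusted p = 0.0331), and its call ended with the replicate number as a block (adjusted p = 0.0659) and when any of 6 of the 7 arrays was left out (adjusted p up to 0.365). None of 4 standard targets was called: TFF1 differed by -0.0014 ± 0.28, GREB1 by 0.54 ± 0.25 (adjusted p = 0.739), CTSD by 0.33 ± 0.14 (adjusted p = 0.627) and CCND1 by 0.09 ± 0.13.

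ESR1 itself fell. Its arrays read 9.95, 11.04, 9.85 and 10.29 in E2pre+P4 and 11.29, 11.08, 10.87 and 10.84 in E2+P4. The difference was -0.99 ± 0.19 (adjusted p = 0.00325, or 0.0186 without E2pre+P4 replicate 2 alone), and -0.74 with all arrays (adjusted p = 0.545). Its mean was 10.03 ± 0.23 in E2pre+P4 (SD, n = 3) and ran from 10.52 to 11.13 in the other groups. PGR read 8.05, 9.15, 7.61 and 6.75 in E2pre+P4 and 8.58, 8.36, 7.90 and 7.94 in E2+P4, so the groups overlapped with or without replicate 2. PGR differed by -0.72 ± 0.26 (95% interval -1.25 to -0.20, adjusted p = 0.319) and was not called. Its mean was 7.47 ± 0.66 in E2pre+P4 (n = 3), 8.87 ± 0.41 in E2 (n = 3) and 5.73 ± 0.13 in vehicle (n = 4). Of 20 measured steroid receptors, pioneer factors and cofactors, ESR1 alone was called (5%, against 0.333% of all genes lower). The glucocorticoid receptor gene NR3C1 (-0.14), FOXA1 (-0.14) and GATA3 (-0.12) stayed near 0.

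**Figure D4:**
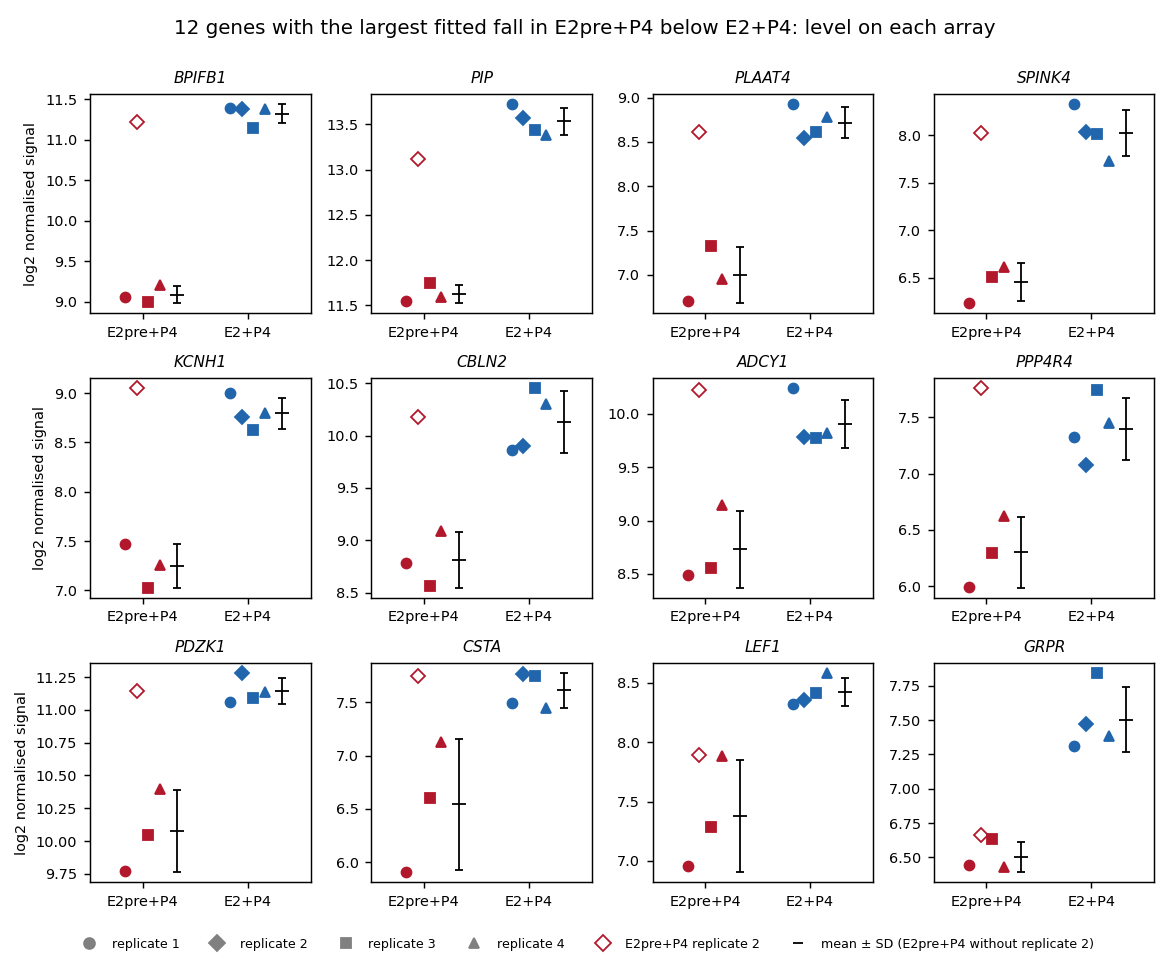
Log2 normalised signal (vertical axis, a separate scale for each gene) on every E2pre+P4 and E2+P4 array (horizontal axis) for the 12 genes with the largest fitted falls, with the mean and SD of 3 E2pre+P4 and 4 E2+P4 arrays. E2pre+P4 replicate 2 (open symbol) lies at or near the E2+P4 arrays for 10 of the 12, between the groups' means for LEF1, and with the other E2pre+P4 arrays for GRPR.

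GRPR was the gene called with all arrays. It read 6.44, 6.66, 6.63 and 6.43 in E2pre+P4 and 7.31, 7.47, 7.84 and 7.39 in E2+P4, without overlap on the 8 arrays. With all arrays the difference was -0.96 (adjusted p = 0.0257), and without both arrays in doubt it fell at least 1.25-fold (-1.0 ± 0.18, adjusted p = 0.00123). GRPR was not detected on the 3 E2pre+P4 arrays, and its mean was 7.50 ± 0.24 in E2+P4 (SD, n = 4) and 6.82 ± 0.22 in E2 (n = 3). Over all genes, 216 (2.18%) did not overlap on the 8 arrays, 51 of them higher (0.515%) and 165 lower (1.67%) in E2pre+P4.

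The other large falls were PLAAT4, a phospholipid acyltransferase induced by retinoids (-1.72 ± 0.29, adjusted p = 0.000466), CBLN2, a secreted synaptic organiser (-1.32 ± 0.17), the adenylate cyclase ADCY1 (-1.17 ± 0.20), PPP4R4, of protein phosphatase 4 (at least 1.16-fold), the cystatin CSTA (at least 1.34-fold, adjusted p = 0.0204) and LEF1, a transcription factor of WNT signalling (-1.04 ± 0.26, adjusted p = 0.0297). PLAAT4 was detected on 1 of the 3 E2pre+P4 arrays. The calls of CSTA and LEF1 were the least firm of these falls. CSTA was not called without E2pre+P4 replicate 1 (-0.75, adjusted p = 0.347), E2pre+P4 replicate 3 (0.0727), E2+P4 replicate 2 (0.0721) or E2+P4 replicate 3 (0.0722), nor with sets of 6 columns as a block (0.173), no background correction (0.0578) or only the 2 groups in the fit (0.162). PPP4R4 was not called with only the 2 groups (0.0532), and LEF1 was not called with the replicate number as a block (adjusted p = 0.0564) or when any 1 of 6 arrays was left out (adjusted p up to 0.315). On LEF1, E2pre+P4 replicate 4 (7.89) lay apart from replicates 1 and 3 (6.96 and 7.28) and below the E2+P4 arrays (8.32 to 8.59).

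In growth factor signalling, ERRFI1, a feedback inhibitor of the EGF receptor family, read 11.79, 10.60, 11.68 and 11.57 in E2pre+P4 and 10.81, 10.38, 10.59 and 10.74 in E2+P4 and rose (1.05 ± 0.21, adjusted p = 0.00371). The ligand TGFA rose by 0.88 ± 0.23 (adjusted p = 0.0446), a call that ended with the replicate number as a block (adjusted p = 0.0821) and when any of 6 of the 7 arrays was left out (adjusted p up to 0.51). The receptor EGFR read 7.66, 7.66, 7.61 and 7.99 in E2pre+P4 and 7.84, 7.58, 7.92 and 8.01 in E2+P4, which overlap (-0.08 ± 0.21, 95% interval -0.51 to 0.34). The ligand EGF differed by 0.26 ± 0.38 (95% interval -0.51 to 1.04). The study reported by RT-qPCR that P4 raised EGFR and EGF in cells pretreated with E2. That is a contrast with pretreated cells without P4, which differs from the present one and was not tested here. ERBB2 (-0.27), ERBB3 (-0.15) and ERBB4 (-0.09) were not called. Of the 13 measured genes of ErbB receptors, ligands and feedback, 2 rose (15.4%, against 0.939% of all genes) and 0 fell, with a median of 0.04.

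No gene of the cell cycle lists was called. Of 44 DNA replication genes and 41 of mitosis, 0 were called, against 1.27% of all genes. In lists of this size, 0 calls are near that share. Their medians were 0.03 and 0.07 and their ranges -0.15 to 0.41 and -0.15 to 0.57. MKI67, a marker of cycling cells, differed by 0.07 ± 0.28. On the luminal side of the PAM50 genes, a panel used to sort breast cancers into subtypes, ESR1 and the co-chaperone BAG1 (-0.63 ± 0.15, adjusted p = 0.0202) fell out of 14 measured (14.3%, against 0.333% of all genes), with a median of -0.16 and 3 above 0. On its basal side 0 of 6 were called, against 1.27% of all genes. BAG1 was not called when any 1 of 5 arrays was left out (adjusted p up to 0.116).

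In fatty acid synthesis the desaturase FADS1 rose (1.44 ± 0.24, adjusted p = 0.000499) and THRSP, a regulator of lipogenesis, fell (-0.82 ± 0.17, adjusted p = 0.00435), out of 22 measured (4.55% each way, against 0.939% of all genes higher and 0.333% lower). THRSP was not called without E2pre+P4 replicate 2 alone (adjusted p = 0.0659) or with only the 2 groups in the fit (0.0967). FADS1 read 10.05, 8.10, 10.11 and 10.87 in E2pre+P4 and 8.84 to 8.98 in E2+P4. FADS2 (1.28) and ACSL1 (1.19) were not called. Of the remaining lists, those of cholesterol (24 genes), immediate early genes (14), insulin and IGF signalling (14), G1 cyclins (19), interferon (18), unfolded protein stress (25), hypoxia (25), ribosome biogenesis (26), the BCL2 family (14), TGF-beta targets (12) and housekeeping genes (11) held 0 called genes, with medians between -0.08 and 0.19. Over all genes 1.27% were called, and 0 calls are near that share in lists of this size.

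**Figure D5:**
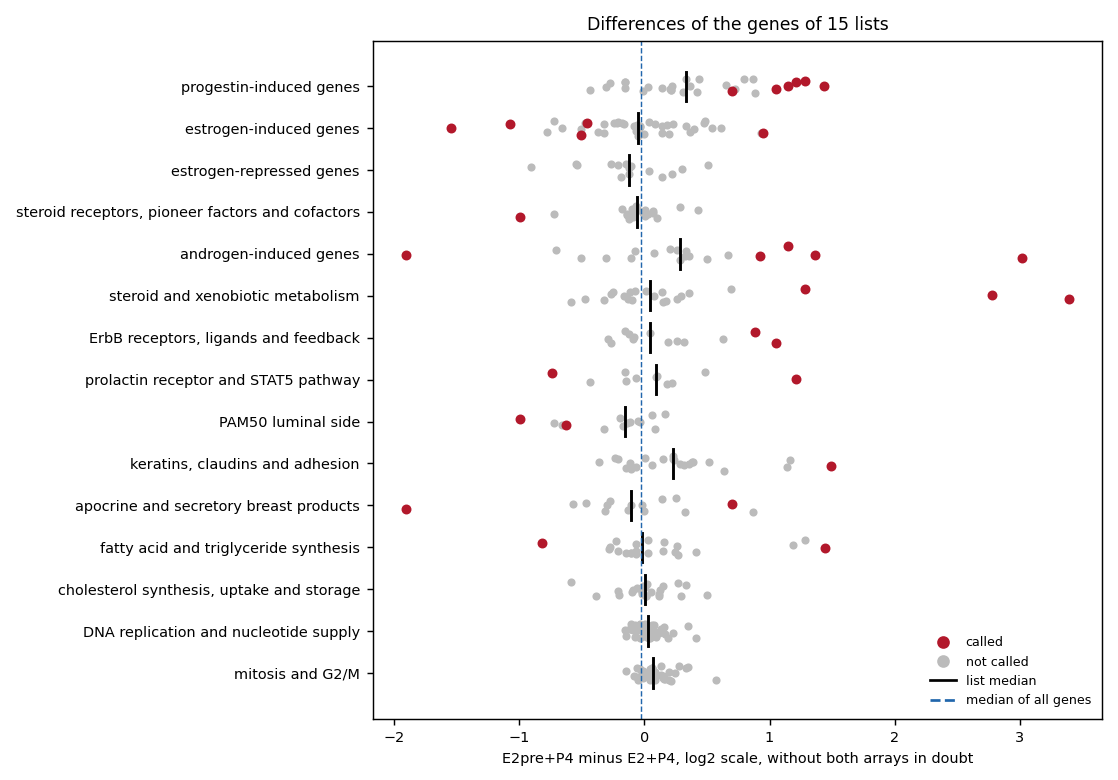
Differences between E2pre+P4 and E2+P4 on the log2 scale (horizontal axis), without both arrays in doubt, for the measured genes of 15 lists (vertical axis). Red points are called genes, grey points are not, black bars are list medians and the dashed line is the median of all genes (-0.03). The largest differences belong to few genes of each list, and the DNA replication and mitosis genes lie close to 0.

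The other hormone treatments showed which of these genes respond elsewhere. The comparisons that follow use other arrays than the present one, in the same fit without both arrays in doubt, and no test was made of the overlaps. Of the 93 genes that rose, 32 (34.4%) were also higher in E2+MPA than in E2, which is 30.2% of the 106 genes called higher there (1.07% of all genes). MPA against vehicle raised 23 of them (24.7%, and 21.1% of its 109, background 1.1%), DHT against vehicle raised 14 (15.1%, and 11.5% of its 122, background 1.23%) and P4 against vehicle raised 3 (C1orf116, SERPINA3 and TTC21A, 60% of its 5, background 0.0505%). E2 against vehicle raised 11 (11.8%, and 12.1% of its 91, background 0.919%) and lowered 5 (background 0.374%). PHACTR3, P3H2, CALD1 and AKR1C3 were among those higher in MPA than in vehicle, whereas AKR1C2, NELL2, ANXA1 and BASP1 were not called in that comparison, and NELL2 was among those higher in E2+MPA than in E2.

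Of the 33 genes that fell, 9 had been raised by E2 against vehicle (27.3%, background 0.919%), among them PDZK1, KCNH1, MYB, SIAH2, LEF1, SPINK4, ADCY1 and PPP4R4. In E2+MPA against E2, 8 of the 33 were lower as well (background 0.454%), PDZK1, KCNH1, ADCY1 and CBLN2 included, and 3 were higher, with SOCS2 and THRSP among them. The mean of E2pre+P4 was the highest of the 9 groups for 85 of the 93 genes that rose and the lowest for 20 of the 33 that fell. These genes were chosen by the E2pre+P4 arrays themselves, which favours such ranks. The share over all genes was not counted, so the ranks are a description.

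The files name no chip. The deposited columns come in sets of 6, as many as such a chip holds, and within 2 of these sets both groups were present. The difference between E2pre+P4 replicate 4 and E2+P4 replicate 4 in the fourth set had a median of 1.40 over the genes that rose and -0.68 over those that fell. The difference between E2pre+P4 replicate 3 and E2+P4 replicate 1 in the fifth set had medians of 1.13 and -0.77. These 4 arrays are among those compared to choose the genes, which fixed the direction in both sets. Of the 126 genes, 21 had a further probe that passed the filter, and for 21 of them every such probe moved the same way.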

How the data were processed

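Per the file headers, the authors deposited each probe's non-normalised signal intensity, exported from BeadStudio, beside a deposited detection p-value column. That column rises with signal and was read as 1 minus the detection p. A further deposited value table holds a straight-line change of the same intensity. The authors normalised by variance stabilisation, corrected with ComBat and fitted limma models, and the deposited intensity values used here carry none of these steps. Background correction (offset 16), quantile normalisation and the log2 step were run with neqc (limma 3.58.1, with R 4.3.3). A single gene symbol was given for 27578 of the 48803 probes. Probes with detection p under 0.01 on at least 4 of 36 arrays were kept (15112), and the brightest probe of a gene was used (9902 genes). A model of 9 group means was fitted over all arrays (lmFit, eBayes), with a call at an adjusted p under 0.05. The number of arrays and the signal over background limit the precision: the 95% interval of a difference reached, as a median over genes, 0.431 either way on the log2 scale. Bounds ("at least") set the mean of the detected group against the detection level of the other arrays.

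Named genes were the 12 largest differences in each direction among genes called without both arrays in doubt and not overlapping, the gene called with all arrays, up to 4 called members of a list, and a panel of 16 hormone-response genes. The members, lists and rule were chosen with earlier results of these data known. In these data, deviations from group means of E2pre+P4 and E2+P4 arrays of the same number were correlated across genes. The values were 0.4538 (replicate 1), 0.1868 (replicate 3) and 0.7802 (replicate 4). The numbers were used as a possible pairing in an alternative fit. Pairs of different numbers correlated at -0.6946 to 0.4663, some above those of the same number. E2pre+P4 replicates 1 and 3 both correlated most with E2+P4 replicate 2 (0.4663 and 0.4442), and only replicate 4 with its own number. This check does not establish a pairing, and the labels do not tie the numbers to a batch. The fit was run on simulated data as a check of the code alone, which bears on no gene named here. Alternatives were the block of replicate numbers, other normalisations, values, filters, weights and left-out arrays.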

Additional observations from a re-analysis of the deposited data

Results flagged for a closer look

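In groups of 4 arrays, single arrays far from the other 3 were looked for among the named genes (a gap to the nearest array past Dixon's 95% critical value, which chance alone gives for about 1 group in 20). Over all 9902 genes this held for 6.92% in E2pre+P4, 7.36% in E2+P4, 5.23% in P4 and 6.16% in vehicle. E2pre+P4 replicate 2 was the distant array in most of the groups found. It was low for AKR1C2 (6.08), NELL2 (6.88), P3H2 (5.86), C1orf116 (5.91), ANXA1 (8.81), CALD1 (5.14), AKR1C3 (6.81), BASP1 (5.48), EMP1 (8.57), SERPINA3 (9.42), HSD11B2 (8.70), FKBP5 (9.35) and KRT80 (10.35), and high for BPIFB1 (11.22) and PIP (13.12). The other 3 E2pre+P4 arrays lay at 8.94 to 9.35 for AKR1C2 and at 9.002 to 9.21 for BPIFB1. Most named genes were chosen in a fit without E2pre+P4 replicate 2, through the other 3 arrays. That choice favours such gaps, so they are no independent evidence on this array.

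E2pre+P4 replicate 4 was distant for EGFR (7.99) and EGF (7.37). Among the E2+P4 arrays, replicate 1 was distant for ADCY1 (10.24) and HSD11B2 (9.29), replicate 2 for BAG1 (8.72), replicate 3 for BPIFB1 (11.14) and CCN5 (10.12), and replicate 4 for EGF (7.01) and CTSD (13.67).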

How the results depend on the processing

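With all arrays, the 1 call (0 higher, 1 lower) gave way to 0 (0 higher, 0 lower) with sets of 6 columns as a block, cyclic loess, no background correction, the value table, or only the 2 groups in the fit, and to 2 (1 higher) without a detection filter. Array weights, whose estimate did not converge, gave 676 (265 higher, 411 lower). Without both arrays in doubt the counts were 126 (93 higher, 33 lower). Leaving out single arrays from all arrays gave 0 to 76 calls (0 to 57 higher, 0 to 19 lower), the highest without E2pre+P4 replicate 2. Without both arrays in doubt, leaving out a further array gave 84 to 105 (57 to 81 higher, 17 to 27 lower), with 57 higher without E2pre+P4 replicate 4, 17 lower without E2pre+P4 replicate 1 and 21 lower without E2+P4 replicate 3. There, cyclic loess gave 144 higher and array weights 53 lower. The 2 groups alone gave 86 calls (72 higher, 14 lower), 76 of them shared with the 126, and ended the calls of 11 of 40 named genes (BAG1, CCN5, CSTA, LEF1, MUC1, MYB, PNMT, PPP4R4, SOCS2, TGFA and THRSP). Sets of 6 as a block ended those of CSTA, LEF1, MYB and SOCS2. Settings of this kind without both arrays in doubt (normalisation, values, filter, probes, weights) were chosen after seeing the data, and they gave 96 to 189 calls. The causes of these changes were not tested.

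With the replicate number as a block, as a possible pairing, all arrays gave 0 calls (0 higher, 0 lower). Without both arrays in doubt that block gave 118 (88 higher, 30 lower), of which 112 were shared with the 126. Among named genes this ended, without both arrays in doubt, the calls of CCN5 (adjusted p = 0.0659), LEF1 (0.0564) and TGFA (0.0821) and no other.

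All 40 called named genes that could be tested kept their direction in each fit without both arrays in doubt (30 of them passed the stricter filter). Directions turned only for genes that were not called. EGFR was 0.067 with sets of 6 as a block and 0.079 without both arrays in doubt as well. TFF1 was -0.10 with array weights and -0.066 with them without both arrays in doubt. It was -0.0014 without E2pre+P4 replicate 2 and without both arrays in doubt, there also with no background correction, the value table, either filter or the 2 groups alone. Array weights gave MKI67 -0.0089, and -0.046 without both arrays in doubt. Over fits that leave out an array, TFF1 ran from -0.14 to 0.13, MKI67 from -0.13 to 0.24, CCND1 from -0.025 to 0.15 and PGR from -1.02 to 0.075, the last without E2pre+P4 replicate 4.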

Other observations

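Further genes called without both arrays in doubt, picked here after their values were seen, belong to other cellular roles. Among the rises were SLPI, a secreted protease inhibitor (1.80 ± 0.24), the galectin LGALS1 (1.49 ± 0.27), the detoxifying enzymes GSTP1 (1.52 ± 0.29) and HMOX1, which breaks down haem (1.03 ± 0.19), MAOB, of amine breakdown (at least 3.04-fold), ALOX5AP, of leukotriene synthesis (at least 2.35-fold), the complement protease C1R (at least 1.29-fold) and DIO2, which activates thyroid hormone (at least 1.75-fold). ALOX5AP and C1R were detected on 3 E2pre+P4 arrays, on E2 replicate 2 and on no other array. They passed the detection filter only through those arrays, so their low levels elsewhere are a description. Further rises were the tubulin TUBB3 (1.94 ± 0.18), CRMP1 (1.25 ± 0.24), DPYSL2 (1.13 ± 0.14) and the synaptic vesicle gene SYNGR3 (1.40 ± 0.31). Ion channel genes included KCNQ3 (1.57 ± 0.17), KCNK12 (1.38 ± 0.24) and KCNK2 (0.74 ± 0.18) for potassium and SCNN1G (0.71 ± 0.15) for sodium. Among the falls were the adhesion genes CDH10 (at least 1.17-fold) and NCAM2 (-0.66 ± 0.17), CTNND2 (at least 1.11-fold), the secreted hormone STC1 (-0.78 ± 0.16), the retinal reductase DHRS3 (-0.91 ± 0.18), FBP1, of gluconeogenesis (-0.51 ± 0.11) and cytochrome c, CYCS (-0.52 ± 0.13).

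Of 2291 tested probes with no gene symbol in the table used, 17 were called without both arrays in doubt, 16 higher and 1 lower in E2pre+P4. That share is below the 126 of 9902 genes (1.27%), and below the 152 of 15112 with every probe its own row. The probe with the largest difference, ILMN_1776181 (3.03), read 9.29, 5.63, 9.53 and 10.00 in E2pre+P4 and 6.29, 6.18, 7.22 and 6.60 in E2+P4, with replicate 2 of E2pre+P4 again below the E2+P4 arrays.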
